A study of Mus musculus with 47 samples.

Results

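Polycomb repressive complex 1 (PRC1) was followed through 9 genes that encode its subunits, Cbx2, Cbx7, Cbx8, Bmi1, Pcgf2, Ring1, Rnf2, Scmh1 and Scml2, in medullary thymic epithelial cells (mTECs) of the mouse. The genes were chosen by name, with earlier results of these data known. All 9 have a row in both RNA-seq count tables, which list 53402 genes for adult mice and 55471 genes for neonatal mice. Live EpCAM+ thymic cells lacking CD45 and Ly51 were sorted by their surface MHC class II into a low fraction (mTEClo) and a high fraction (mTEChi), the latter enriched for mature cells, and sequenced in bulk by RamDA-seq, a total RNA method with random and oligo(dT) primers. All mice were on the C57BL/6 strain. The 23 adult libraries came from wild-type mice (WT) of 4 to 5 weeks (8 mTEClo and 7 mTEChi libraries) and from Aire-deficient mice (AireKO) of 5 to 6 weeks (4 libraries of each fraction). The 24 neonatal libraries came from pups of 1 to 6 days. Control mice (Ctrl), whose alleles the labels do not spell out, gave 3 mTEClo and 5 mTEChi libraries, and EEDcKO mice gave 4 and 3. There were also 3 mTEChi libraries of AireKO mice and 3 libraries of each fraction from mice lacking both Aire and EED (AireEEDdKO). In the EEDcKO and AireEEDdKO mice a floxed Eed allele was removed by Foxn1-Cre, which acts throughout the thymic epithelium and not in mTECs alone. The AireKO mice are described only as Aire-deficient. All adult AireKO libraries came from males. Among the adult WT libraries, mTEClo replicates 1, 2, 5, 7 and 8 and mTEChi replicates 4 and 5 came from females. Sex is therefore partly mixed with the Aire genotype in adults and with the fraction in adult WT mice. Some neonatal libraries pool male and female pups. The replicates are separate libraries, and the p-values measure the spread between these libraries.

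PRC1 places ubiquitin on histone H2A through a RING ligase, RING1 or RNF2, that works only with a PCGF partner. BMI1 and PCGF2 are the PCGF partners of canonical PRC1, whose CBX subunit reads the H3K27me3 mark laid down by PRC2, the complex that needs EED, and whose SCM proteins SCMH1 and SCML2 join through their SAM domains. In the medulla, Aire drives the display of many otherwise tissue-restricted genes, which is how developing T cells meet self antigens.

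The stretches of 250 bases that precede the RefSeq starts of Bmi1, Pcgf2, Ring1 and Scml2 (GRCm38.p6) are shown for 3 reasons. Bmi1 and Ring1 rose together after EED loss, Pcgf2 is the paralogue of Bmi1, and Scml2 had the largest difference of the 9 with Aire genotype. The sequences read 5′ to 3′ on the strand of the gene, and each CpG dinucleotide is in capitals. They cover chr2:18676768-18677017 on the plus strand, chr11:97699649-97699898 on the minus strand, chr17:34024681-34024930 on the minus strand and chrX:161162500-161162749 on the plus strand. The RefSeq starts of Pcgf2 and Scml2 lie inside the longer gene spans of the Ensembl annotation.
Bmi1: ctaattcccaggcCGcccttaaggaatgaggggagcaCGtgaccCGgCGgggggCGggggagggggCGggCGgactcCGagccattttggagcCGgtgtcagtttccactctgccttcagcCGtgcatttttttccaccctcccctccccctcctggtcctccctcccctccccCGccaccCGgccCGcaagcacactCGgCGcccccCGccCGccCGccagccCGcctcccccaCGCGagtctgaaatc
Pcgf2: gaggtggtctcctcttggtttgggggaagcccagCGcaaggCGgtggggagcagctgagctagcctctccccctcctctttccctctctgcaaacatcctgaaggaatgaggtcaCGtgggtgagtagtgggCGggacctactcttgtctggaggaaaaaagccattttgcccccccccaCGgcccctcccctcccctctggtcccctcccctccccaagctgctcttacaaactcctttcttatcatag
Ring1: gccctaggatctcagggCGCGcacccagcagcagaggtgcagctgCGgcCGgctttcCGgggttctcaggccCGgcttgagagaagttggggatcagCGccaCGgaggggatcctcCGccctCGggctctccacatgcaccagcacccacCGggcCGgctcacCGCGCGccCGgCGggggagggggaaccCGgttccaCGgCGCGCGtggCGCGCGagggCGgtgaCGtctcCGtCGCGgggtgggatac
Scml2: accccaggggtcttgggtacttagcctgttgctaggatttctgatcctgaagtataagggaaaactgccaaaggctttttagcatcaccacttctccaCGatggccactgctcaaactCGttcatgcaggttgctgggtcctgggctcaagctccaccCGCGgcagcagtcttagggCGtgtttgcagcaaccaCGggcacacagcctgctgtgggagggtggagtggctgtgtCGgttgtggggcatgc
The Ring1 stretch holds 30 CpG, a number reached by 5.94% of the 32851 RefSeq stretches of the same length, and the Bmi1 stretch holds 21, reached by 16.3%. Pcgf2 with 5 CpG and Scml2 with 7 lie near the median of 6. The stretches of Cbx7, Cbx8 and Rnf2 hold 23, 22 and 20 CpG, one start of Scmh1 holds 45 and its other start none, and Cbx2 had no entry. Cbx7 and Rnf2, with numbers near that of Bmi1, did not pass with EED loss in either fraction. A link between CpG number and the changes was not tested. The palindrome CACGTG, searched without mismatch, occurs in 6.02% of all stretches and in those of Bmi1 (215 bases before the start), Pcgf2 (137 bases) and Cbx8 (98 bases). A match is no evidence of binding.

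The genes lie on 7 chromosomes, and Cbx2 and Cbx8 are neighbours on chromosome 11 (119022962 to 119031270 and 119036305 to 119040969, GRCm38). Exons of Cbx7 share 1.54% of their bases with Apobec3 and those of Rnf2 share 3.83% with Trmt1l, genes on the opposite strand. Reads were counted without regard to strand, so those in the shared bases cannot be assigned to either gene. The libraries held 1578579 to 4817418 counts each, and all 12 mTEC markers had counts in every group, summing to 1983 to 4706 CPM per library. At this depth Scml2 received at most 38 counts in a library and 0 in its emptiest, Cbx8 12 to 111, and the other members at least 23, so statements on Scml2 rest on few reads. Aire averaged 816 ± 57.6 CPM (SD, n = 7) in adult WT mTEChi against 28.4 ± 11.2 (n = 4) in AireKO, and 613 ± 153 in neonatal Ctrl mTEChi (n = 5) against 70.0 ± 38.4 in AireKO and 21.4 ± 11.1 in AireEEDdKO (n = 3 each). In neonatal mTEChi Eed averaged 28.9 ± 7.86 CPM in Ctrl (n = 5), 14.7 ± 4.59 in EEDcKO (n = 3) and 13.5 ± 2.99 in AireEEDdKO (n = 3), in counts over the whole gene, which need not show the deletion itself. Of the 8 adult AireKO libraries, 6 (all 4 mTEChi, and mTEClo replicates 3 and 4) hold no mitochondrial counts, unlike every other library, so in adult mTEChi the Aire genotype and this kind of library cannot be told apart.

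**Figure D1:**
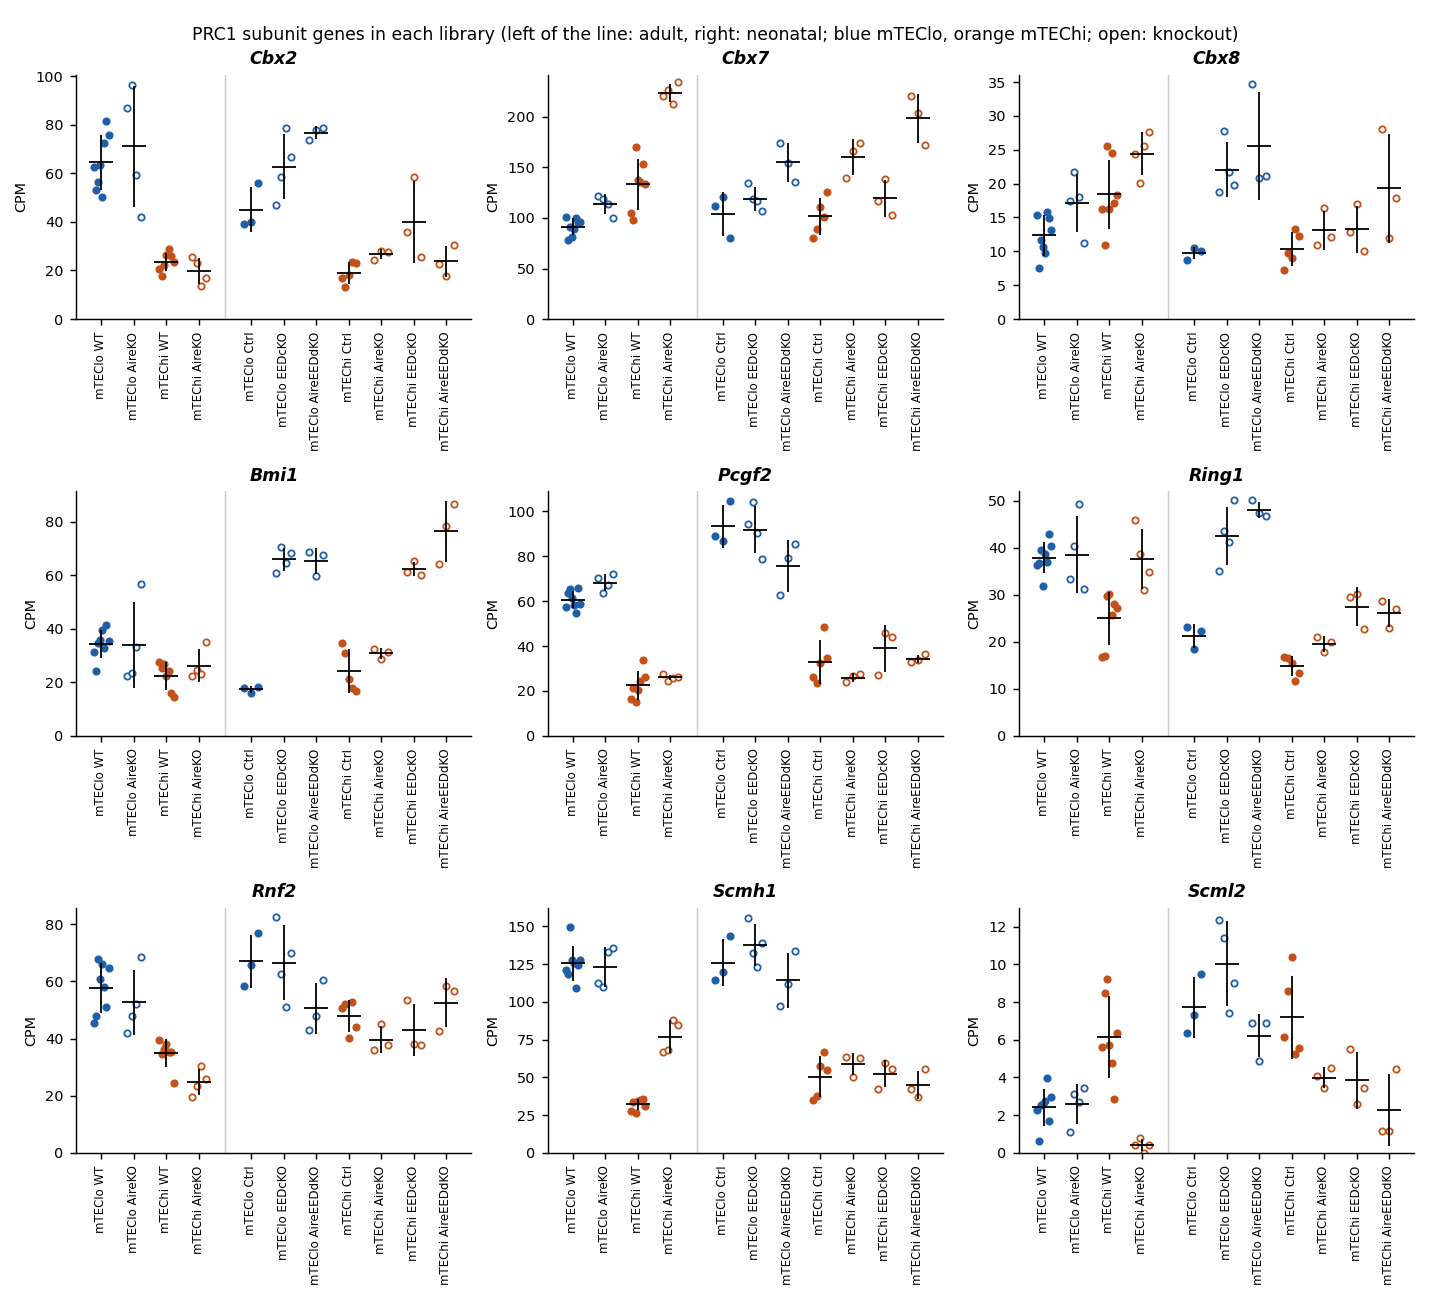
Each point is the level of a gene in 1 library in CPM (counts relative to the scaled library size, linear axis from 0), by group, with adult groups left of the line and neonatal groups right of it; blue is mTEClo, orange mTEChi, open symbols are knockouts, and lines with bars are means and SD. Bmi1 and Ring1 stand higher in all neonatal groups without EED than in Ctrl of the same fraction, and Scml2 is at most 0.79 CPM in adult AireKO mTEChi.

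Levels of different genes were compared per length, in TPM (counts divided by exonic length, scaled to a common total). In adult WT mTEClo the order ran from Pcgf2 at 82.3 ± 5.88 TPM (SD, n = 8) through Scmh1 at 77.8 ± 8.35, Cbx2 at 72.4 ± 12.4, Cbx7 at 67.3 ± 5.81, Rnf2 at 67.2 ± 11.5 and Ring1 at 55.9 ± 5.01. Bmi1 followed at 41.6 ± 6.97, Cbx8 at 16.1 ± 3.75 and Scml2 at 1.91 ± 0.779 TPM. Neighbours down to Bmi1 overlapped in their ranges, whereas Cbx8 lay below every Bmi1 value and Scml2 below every Cbx8 value. In adult WT mTEChi Cbx7 stood first at 91.6 ± 17.8 TPM (n = 7), above every value of Rnf2 at 37.6 ± 5.18. Ring1 (34.4 ± 8.14), Pcgf2 (28.5 ± 8.29), Bmi1 (25.1 ± 5.62), Cbx2 (24.7 ± 4.29), Cbx8 (22.4 ± 6.24) and Scmh1 (18.5 ± 2.35 TPM) each overlapped the next in this order, and Scml2 was apart at 4.50 ± 1.54 TPM. The summed level of the 9 genes was 482 ± 36.6 TPM in WT mTEClo and 287 ± 34.6 in WT mTEChi, and in the neonatal Ctrl libraries 472 ± 20.1 and 291 ± 27.1, so the mTEChi total was the lower one at both ages, with no overlap between the fractions.

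Changes with maturation were asked by comparing mTEChi with mTEClo within a genotype. In adult WT mice all 9 members passed the test, 3 higher and 6 lower in mTEChi, where 70.3% of all 19310 genes tested passed, so being called was itself common. The median log2 fold change over the 9 was -0.66, against 0.01 over all genes. Of the CBX readers, Cbx2 ranged in mTEClo from 50.4 CPM through a median of 63.0 to 81.6, and in mTEChi from 17.6 through 23.3 to 28.7, with no overlap between the fractions (log2 fold change -1.43 ± 0.16 SE, edgeR adjusted p = 4.94e-09). Cbx7 moved the other way, from 78.0 to 101 CPM around a median of 93.1 in mTEClo and from 98.4 to 170 around 135 in mTEChi. Its ranges met only at their ends (0.55 ± 0.09, edgeR adjusted p = 3.82e-06). Cbx8, another reader, rose by 0.60 ± 0.17 with overlapping ranges (edgeR adjusted p = 0.00284).

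The remaining members of canonical PRC1 fell, with 1 exception. Among the PCGF partners, Pcgf2 ran from 54.9 CPM through 60.0 to 65.6 in WT mTEClo and from 15.2 through 21.3 to 33.8 in mTEChi (-1.41 ± 0.11, edgeR adjusted p = 7.15e-12), so the fractions were fully apart. Bmi1 fell less, with overlapping ranges (-0.66 ± 0.17, edgeR adjusted p = 0.00147). Both RING ligases were lower without overlap, Ring1 by -0.57 ± 0.13 and Rnf2 by -0.75 ± 0.12 (edgeR adjusted p = 0.000226 and 2.29e-06). Scmh1, an SCM protein gene, showed the widest gap of the 9, from 109 CPM through 125 to 149.9 in mTEClo and from 26.6 through 34.0 to 35.7 in mTEChi (-1.96 ± 0.09, 0.257-fold, edgeR adjusted p = 4.09e-17). Scml2, its relative on the X chromosome, went up instead, from 0.624 to 3.97 CPM in mTEClo to 2.87 to 9.21 CPM in mTEChi (1.23 ± 0.27, edgeR adjusted p = 0.000234), with overlapping ranges. Because mTECs express many tissue-restricted genes themselves, sums of marker genes of other cells need not measure those cells. Summed markers of other cells also rose between these fractions, those of myeloid cells from 37.9 to 67.4 CPM to between 273 and 344. Those of thymocytes rose from 28.4 to 41.8 to between 90.2 and 127, and those of dividing cells from 400 to 642 to between 921 and 1347. Mesenchymal markers went from 186 to 289 CPM to between 414 and 564, and cortical epithelial markers from 454 to 593 to between 638 and 696. Of the 8 mesenchymal genes 4 passed as higher and 1 as lower, and of the 7 cortical genes 3 and 2, beside 70.3% of all genes. Their part in these differences was not tested.

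In adult AireKO mice 7 members passed between the fractions, 2 higher and 5 lower, beside 57.9% of all genes. Cbx2 (-1.82 ± 0.22), Pcgf2 (-1.39 ± 0.15) and Rnf2 (-1.10 ± 0.17) were lower in mTEChi and Cbx7 was higher (0.98 ± 0.12), each without overlap and with an edgeR adjusted p of at most 2.17e-06. Scmh1 fell by 0.68 ± 0.11 (edgeR adjusted p = 8.38e-06), from 110 to 135 CPM in mTEClo to 66.8 to 88.2 in mTEChi. Scml2 was lower in AireKO mTEChi than in mTEClo (-2.67 ± 0.63, edgeR adjusted p = 0.000593), the opposite of its direction in WT. Bmi1 (-0.44 ± 0.23, edgeR adjusted p = 0.107) and Ring1 (-0.04 ± 0.17, edgeR adjusted p = 0.852) did not pass. The call of Cbx8 (0.56 ± 0.23, edgeR adjusted p = 0.0374) was lost without mTEClo replicate 4, mTEChi replicate 3 or mTEChi replicate 4, with values of 0.41 to 0.67 over the 8 fits with a library removed. Bmi1 passed without mTEChi replicate 4 (-0.62) or mTEClo replicate 1 (-0.60) or 2 (-0.57). All of these mTEChi libraries, but only replicates 3 and 4 of mTEClo, hold no mitochondrial counts. This kind of library is therefore partly mixed with the fraction here. Markers of myeloid cells summed to 106 to 143 CPM in AireKO mTEClo and 345 to 396 in mTEChi, those of thymocytes to 16.8 to 30.5 and 44.3 to 57.3, and those of mesenchyme to 253 to 357 and 431 to 549, and the part of these lists was not tested. Of the 8 mesenchymal genes 3 passed as higher in mTEChi and 3 as lower.

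In neonatal Ctrl mice 5 members were lower in mTEChi and none was higher, beside 37.4% of all genes that passed. Pcgf2 was at 88.8, 86.6 and 104 CPM in mTEClo and at 26.2, 23.5, 32.5, 48.4 and 34.6 CPM in mTEChi, well apart (-1.46 ± 0.18, edgeR adjusted p = 3.14e-06). Scmh1 was at 115, 120 and 144 CPM against 35.1, 37.8, 57.3, 66.8 and 54.8 (-1.29 ± 0.17, edgeR adjusted p = 9.12e-06), and Cbx2 at 39.2, 40.0 and 55.8 CPM against 13.2 to 23.6 (-1.20 ± 0.23, edgeR adjusted p = 0.000473). Neither gene had a library in the range of the other fraction. Ring1 (-0.54 ± 0.16) and Rnf2 (-0.48 ± 0.17) passed with an edgeR adjusted p of 0.012 and 0.0255. However, the call of Ring1 was lost without mTEClo replicate 1 or 3 and that of Rnf2 in 4 of 8 fits (without mTEClo replicate 2 or 3, or mTEChi replicate 3 or 5), so that 3 members were left without mTEClo replicate 3. Bmi1 passed without mTEChi replicate 4 or 5, at 0.54 in both fits. The mTEClo libraries were all from 1 to 3 days and 2 of the mTEChi libraries from 6 days, so pup age and fraction are partly mixed here. Cbx7, at 112, 121 and 79.8 CPM in mTEClo and 80.3 to 126 in mTEChi, differed by only -0.03 ± 0.15 (edgeR adjusted p = 0.879). Several marker lists were also apart between these fractions. Thymocyte markers went from 27.9 to 44.2 CPM in mTEClo to between 100 and 126 in mTEChi, myeloid markers from 111 to 187 to between 285 and 331, mesenchymal markers from 332 to 346 to between 467 and 669, and endothelial markers from 25.1 to 29.1 to between 42.4 and 66.8. Dividing-cell genes were lower in mTEChi, at 1830 to 2323 CPM against 2429 to 2621, as were cortical epithelial markers, at 446 to 1099 against 2397 to 3579. The part of these lists was not tested.

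Without EED 7 members were lower in mTEChi than in mTEClo, beside 38% of all genes, and without both EED and Aire 5 were lower, beside 39.2%. Pcgf2 (-1.20 ± 0.19 in EEDcKO, -1.14 ± 0.21 in AireEEDdKO), Scmh1 (-1.37 ± 0.19 and -1.33 ± 0.20), Ring1 (-0.63 ± 0.15 and -0.87 ± 0.17), Cbx2 (-0.63 ± 0.23 and -1.66 ± 0.26) and Scml2 (-1.46 ± 0.36 and -1.26 ± 0.42) passed in both genotypes, with an edgeR adjusted p of at most 0.0343. The call of Cbx2 in EEDcKO was lost in 4 of 7 fits with a library removed (mTEChi replicate 1 or 3, mTEClo replicate 3 or 4), its log2 fold change running from -0.95 to -0.39. That of Scml2 in AireEEDdKO was lost in 3 of 6 (mTEChi replicate 1 or 2, mTEClo replicate 3), the change running from -2.39 to -0.98. Rnf2 (-0.65 ± 0.18, edgeR adjusted p = 0.00614) and Cbx8 (-0.71 ± 0.27, edgeR adjusted p = 0.04) passed in EEDcKO. Rnf2 did not pass without mTEChi replicate 2 (-0.45), and Cbx8 did not in 4 of 7 fits (without mTEClo replicate 2 or 3, or mTEChi replicate 1 or 3). In EEDcKO mTEClo and mTEChi, summed thymocyte markers were at 22.3 to 43.4 and 49.2 to 104 CPM, myeloid markers at 41.6 to 176 and 202 to 319, and endothelial markers at 12.5 to 22.4 and 30.6 to 34.7. The same lists were apart in AireEEDdKO, thymocyte markers at 16.5 to 38.6 and 67.0 to 68.7 CPM, myeloid markers at 60.4 to 209 and 246 to 409, and endothelial markers at 11.2 to 19.7 and 29.9 to 34.4, and their part was not tested. In the plot of maturation changes Pcgf2, Scmh1 and Cbx2 lie below 0 in all 5 groups.

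**Figure D2:**
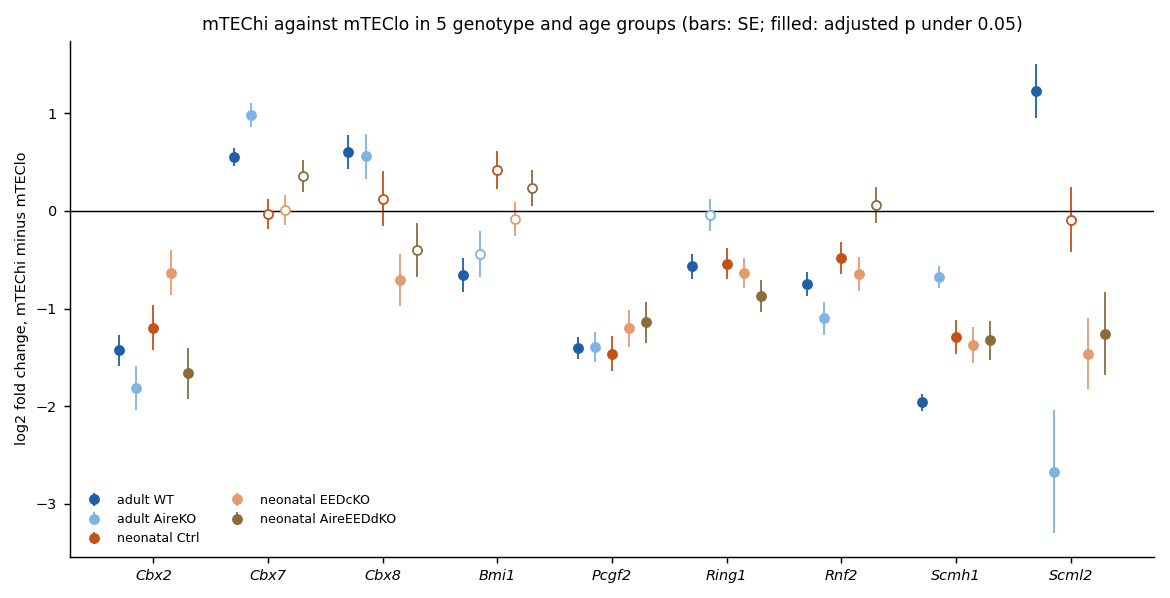
Log2 fold change of mTEChi over mTEClo (vertical axis, bars are standard errors) for each of the 9 genes in the 5 genotype and age groups that have both fractions; filled symbols passed at an edgeR adjusted p under 0.05. Pcgf2, Scmh1 and Cbx2 are below 0 in every group, while Scml2 is above 0 in adult WT alone among the groups where it passed.

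Whether maturation differed with age was tested as the adult WT difference minus the neonatal Ctrl difference, over the 21289 genes tested in both tables together. It passed for 4 members beside 28.9% of all genes. The difference was more positive in adults for Cbx7 (0.57 ± 0.18, edgeR adjusted p = 0.0115) and Scml2 (1.31 ± 0.43, edgeR adjusted p = 0.0178) and more negative for Scmh1 (-0.69 ± 0.18, edgeR adjusted p = 0.00346). Bmi1, which fell in adults and was at 0.42 ± 0.20 in neonates (edgeR adjusted p = 0.0931), differed by -1.08 ± 0.30 (edgeR adjusted p = 0.00447). All neonatal Ctrl mTEClo libraries were from 1 to 3 days, with Bmi1 at 16.0 to 18.4 CPM. Ctrl mTEChi libraries of those ages were at 16.7 to 21.3 CPM and the 6-day ones at 30.9 and 34.6. Pup age and fraction are thus partly mixed in the neonatal difference. The call of Cbx7 was lost without neonatal Ctrl mTEClo replicate 1 or 2 or mTEChi replicate 1 (0.39 to 0.74 over 23 fits) and that of Scml2 without mTEClo replicate 3 (1.18). Ages and tables were made apart, so a difference between the tables that touches the fractions unequally cannot be told apart from age. Markers of cortical epithelium summed to 2397 to 3579 CPM in neonatal Ctrl mTEClo and to 446 to 1099 in mTEChi, against 454 to 593 and 638 to 696 in adult WT. Their part was not tested.

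The effect of Aire was asked in adult mTEChi by AireKO against WT. There 5 members passed, 3 higher and 2 lower, beside 54.5% of all genes. Scmh1 was at 66.8, 68.3, 88.2 and 84.8 CPM in AireKO, above every WT library (26.6 to 35.7), and rose 2.39-fold (1.26 ± 0.11, edgeR adjusted p = 2.05e-10). It remained below the 110 to 135 CPM of AireKO mTEClo. Scml2 was at 0.428, 0.79, 0 and 0.406 CPM in AireKO, below every WT library (2.87 through 5.72 to 9.21). These are 4 reads in 4 libraries against 111 in 7, a ratio of WT to AireKO of 15.3 (exact 95% interval 5.83 to 57.3, counting error only), and the log2 fold change was -3.81 ± 0.52 (edgeR adjusted p = 5.48e-07). The library at 0 is compatible with up to 3 counts.

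Cbx7 was at 221, 226, 213 and 234 CPM in AireKO mTEChi and rose by 0.74 ± 0.10 (edgeR adjusted p = 1.27e-06) from WT values that reached at most 170. Ring1 was at 45.8, 38.7, 30.9 and 34.9 CPM, all above the highest WT value of 30.1 (0.55 ± 0.15, edgeR adjusted p = 0.00317). Rnf2, its paralogue, fell by 0.48 ± 0.16 with overlapping ranges (edgeR adjusted p = 0.0115). It did not pass without AireKO replicate 1 (-0.34). Cbx2 (-0.29 ± 0.22), Cbx8 (0.38 ± 0.20), Bmi1 (0.25 ± 0.22) and Pcgf2 (0.19 ± 0.15) did not pass, with edgeR adjusted p between 0.103 and 0.35. In mTEClo 1 member passed beside 25.1% of all genes, Cbx7 at 99.9 to 122 CPM against 78.0 to 101 in WT (0.31 ± 0.11, edgeR adjusted p = 0.0352), and this call was lost in 8 of 12 fits with a library removed (WT replicates 2, 4, 5, 6 and 8, AireKO replicates 1, 2 and 3). Without AireKO replicate 4, Cbx8 passed as well (0.58). Summed myeloid markers were at 106 to 143 CPM in AireKO mTEClo and 37.9 to 67.4 in WT, and cortical epithelial markers at 716 to 885 and 454 to 593. Of the 6 myeloid genes 2 passed as higher and 1 as lower, with a median log2 change of -0.40. Their part was not tested.

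The difference of the Aire effect between fractions passed for 3 members beside 24.4% of all genes, namely Scmh1 (1.28 ± 0.15, edgeR adjusted p = 2.32e-07), Scml2 (-3.90 ± 0.68, edgeR adjusted p = 8.68e-05) and Cbx7 (0.43 ± 0.15, edgeR adjusted p = 0.0401). The call of Cbx7 was lost in 7 of 23 fits with a library removed, with values of 0.41 to 0.54 (mTEClo WT replicates 1 and 7, mTEClo AireKO replicate 4, mTEChi WT replicates 5 and 7, mTEChi AireKO replicates 2 and 4). Ring1 (0.53 ± 0.21, edgeR adjusted p = 0.0675) passed in 5 of those 23 fits (without mTEClo WT replicate 4 or 6, mTEClo AireKO replicate 3, mTEChi WT replicate 3 or mTEChi AireKO replicate 3). With a term for libraries without mitochondrial counts, chosen after seeing the data and estimated from mTEClo alone, the AireKO difference in mTEChi was 0.99 for Scmh1, -4.40 for Scml2, 0.91 for Cbx7 and -0.91 for Rnf2 (edgeR adjusted p = 0.000119, 0.000266, 0.000835 and 0.0071), while Ring1 at 0.42 no longer passed (edgeR adjusted p = 0.247). In AireKO mTEClo the 2 libraries with mitochondrial counts came from mice of 5 weeks and the 2 without them from mice of 6 weeks, so this term and age cannot be told apart. These 2 pairs of libraries did not overlap in some of the members. With 2 libraries a side such gaps arise easily by chance, and the share of all genes that showed one was not counted. The libraries without mitochondrial counts were lower in Cbx2, at 59.4 and 42.2 CPM against 86.7 and 96.5, and in Cbx7, at 114 and 99.9 against 122 and 118.9. They were higher in Bmi1, at 33.3 and 56.9 CPM against 22.3 and 23.6, in Rnf2, at 52.2 and 68.5 against 42.0 and 47.9, and in Scmh1, at 133 and 135 against 113 and 110. Thymocyte markers summed to 44.3 to 57.3 CPM in AireKO mTEChi and 90.2 to 127 in WT, with none of the 12 genes at 0 in all libraries of either group, and dividing-cell genes to 469 to 892 against 921 to 1347. Cortical epithelial markers summed to 835 to 937 CPM in AireKO mTEChi against 638 to 696 in WT, and myeloid markers to 345 to 396 against 273 to 344. Single genes of these 2 lists went both ways, where 54.5% of all genes passed. Of the 6 myeloid genes 2 passed as higher in AireKO and 4 as lower, with a median log2 change of -1.53. Of the 7 cortical genes 3 passed as higher and 3 as lower. Their part was not tested. In these bulk samples fewer cells of a type, less RNA per cell and less expression of such genes by the mTECs themselves cannot be told apart.

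In neonatal mTEChi 1 member passed between AireKO and Ctrl, beside 28.8% of all genes. Cbx7 was at 140, 166 and 174 CPM in AireKO and 80.3, 89.4, 110, 101 and 126 in Ctrl, with no overlap (0.65 ± 0.15, edgeR adjusted p = 0.00273). Scml2 was at 4.08, 3.42 and 4.48 CPM, just below the lowest Ctrl library at 5.24 (-0.80 ± 0.37, edgeR adjusted p = 0.112), and Scmh1 at 63.2, 50.5 and 62.8 CPM lay among the Ctrl values (0.20 ± 0.18, edgeR adjusted p = 0.438). For Scmh1 the 6-day Ctrl libraries were at 35.1 and 37.8 CPM, below every AireKO library. The Ctrl libraries of 1 to 3 days were at 54.8 to 66.8. The count rose to 2 without Ctrl replicate 1 and to 3 without replicate 2, the Ctrl libraries of 6 days, as Bmi1 (0.51 and 0.50) and then Ring1 (0.46) passed. All AireKO libraries were from 4 to 6 days, while 3 of the Ctrl libraries were from 1 to 3 days. Genotype and pup age are therefore partly mixed here and in the difference from adults. The difference of the Aire effect between ages passed for 2 members, beside 11.6% of all genes, Scmh1 (1.12 ± 0.20, edgeR adjusted p = 0.000254) and Scml2 (-2.95 ± 0.68, edgeR adjusted p = 0.00345), and this difference includes the kind of library of the adult AireKO mTEChi. Cbx7 differed by 0.16 ± 0.19 between the ages (edgeR adjusted p = 0.643). Dividing-cell genes summed to 2577 to 2875 CPM in neonatal AireKO mTEChi and 1830 to 2323 in Ctrl. Thymocyte markers summed to 56.4 to 95.6 CPM in AireKO against 100 to 126, and endothelial markers to 38.9 to 40.1 against 42.4 to 66.8. Their part was not tested.

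**Figure D3:**
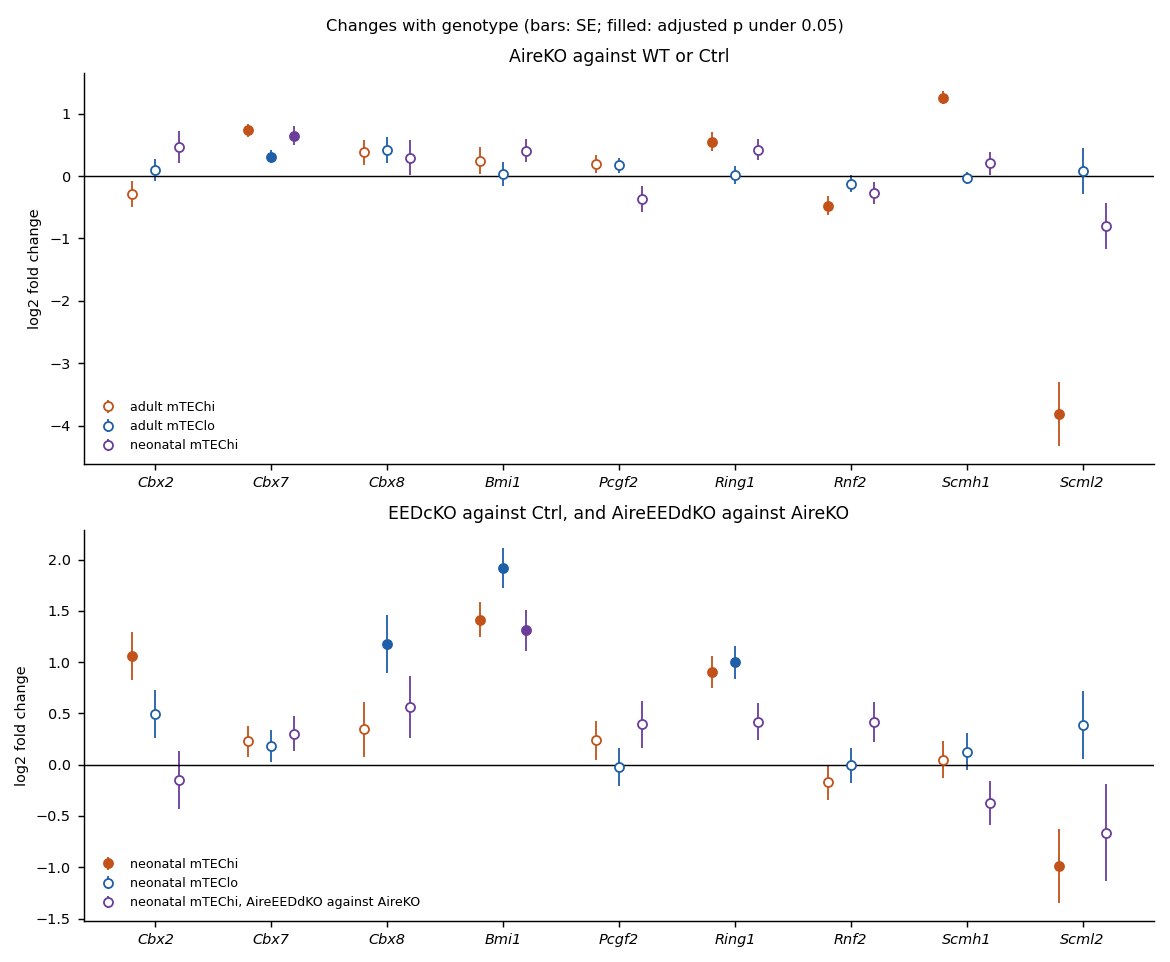
Log2 fold changes with genotype for the 9 genes (vertical axis, bars are standard errors, filled symbols passed at an edgeR adjusted p under 0.05), with Aire comparisons in one panel and EED comparisons in the other. Cbx7 is above 0 in the 3 Aire comparisons, Scml2 is far below 0 in adult mTEChi, and Bmi1 is the highest gene in the 3 EED comparisons.

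Loss of EED was asked in each fraction against Ctrl. In mTEChi 4 members passed, 3 higher and 1 lower, beside 32.6% of all genes, and in mTEClo 3 passed, all higher, beside 30.7%. Bmi1, whose protein is the PCGF partner best known for silencing Cdkn2a, was at 18.1, 16.0 and 18.4 CPM in Ctrl mTEClo and at 60.8, 70.6, 64.5 and 68.3 CPM in EEDcKO mTEClo. The groups were far apart, a 3.78-fold rise (1.92 ± 0.20, edgeR adjusted p = 3.04e-07). In mTEChi it was at 34.6, 30.9, 21.3, 17.8 and 16.7 CPM in Ctrl and at 61.4, 65.3 and 60.2 in EEDcKO (2.67-fold, 1.42 ± 0.17, edgeR adjusted p = 4.12e-06). The 2 highest Ctrl values, 34.6 and 30.9, are those of the 6-day pups, and the EEDcKO library of the same age was at 61.4. The 1 to 3 day libraries were at 16.7 to 21.3 in Ctrl and 60.2 to 65.3 in EEDcKO. All Ctrl mTEClo libraries were from 1 to 3 days, where the EEDcKO libraries of those ages were at 60.8 and 70.6. With a term for age the rises were 1.46 in mTEChi and 1.77 in mTEClo (edgeR adjusted p = 1.24e-06 and 5.37e-07). This term is the same shift in all neonatal groups, whereas Bmi1 was higher at 6 days in Ctrl mTEChi and not in EEDcKO mTEChi. For Ctrl mTEClo the term rests on other groups. It therefore cannot remove an age difference that varies between groups.

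Ring1, the less abundant RING ligase in the neonatal Ctrl libraries, was at 23.1, 18.4 and 22.3 CPM in Ctrl mTEClo and at 35.1, 43.5, 41.2 and 50.1 in EEDcKO (1.00 ± 0.16, 2.0-fold, edgeR adjusted p = 7.12e-05). In mTEChi it went from 16.7, 16.6, 15.5, 11.8 and 13.5 CPM to 29.5, 30.2 and 22.8 (0.91 ± 0.16, 1.88-fold, edgeR adjusted p = 0.000148). Neither fraction showed overlap. Within the 1 to 3 day libraries the values stayed apart too, at 18.4 to 23.1 against 35.1 and 43.5 in mTEClo and 11.8 to 15.5 against 22.8 and 30.2 in mTEChi. Bmi1 and Ring1 passed in both fractions in every fit that left out a library, with log2 changes of 1.28 to 1.58 (mTEChi) and 1.79 to 1.96 (mTEClo) for Bmi1 and 0.79 to 1.04 and 0.84 to 1.08 for Ring1. Rnf2 and Pcgf2, their paralogues, did not pass in either fraction, with log2 changes from -0.17 ± 0.17 to 0.24 ± 0.19 (edgeR adjusted p at least 0.352).

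Cbx8 and Cbx2, CBX readers, passed in 1 fraction each. Cbx8 was at 8.71, 10.4 and 10.0 CPM in Ctrl mTEClo and at 18.7, 27.8, 21.8 and 19.8 in EEDcKO (1.17 ± 0.28, edgeR adjusted p = 0.00301), without overlap, and in mTEChi the change was 0.34 ± 0.27 (edgeR adjusted p = 0.344). Cbx2 was at 35.6, 58.6 and 25.6 CPM in EEDcKO mTEChi, above the Ctrl range of 13.2 to 23.6 (1.06 ± 0.23, edgeR adjusted p = 0.0013). This call rested on the library at 58.6, replicate 2, without which the change was 0.62 (edgeR adjusted p = 0.0608), and in mTEClo it was 0.50 ± 0.23 (edgeR adjusted p = 0.11). Scml2 fell in mTEChi (-0.99 ± 0.36, edgeR adjusted p = 0.0398), with overlapping ranges and 9 to 12 reads per EEDcKO library, and the call was lost in 4 of 8 fits (without Ctrl replicate 2 or 3, or EEDcKO replicate 2 or 3; -1.24 to -0.74). Cbx7 and Scmh1 did not pass in either fraction. Differences between the fractions in the EED effect passed for none of the 9 beside 1.98% of all genes, and DESeq2 also called 0. Cbx8 at -0.83 ± 0.39 and Scml2 at -1.37 ± 0.49 were the 2 members below 0.05 unadjusted (edgeR adjusted p = 0.315 and 0.167, unadjusted p = 0.0436 and 0.0105). The share of all genes below 0.05 unadjusted was not counted.

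**Figure D4:**
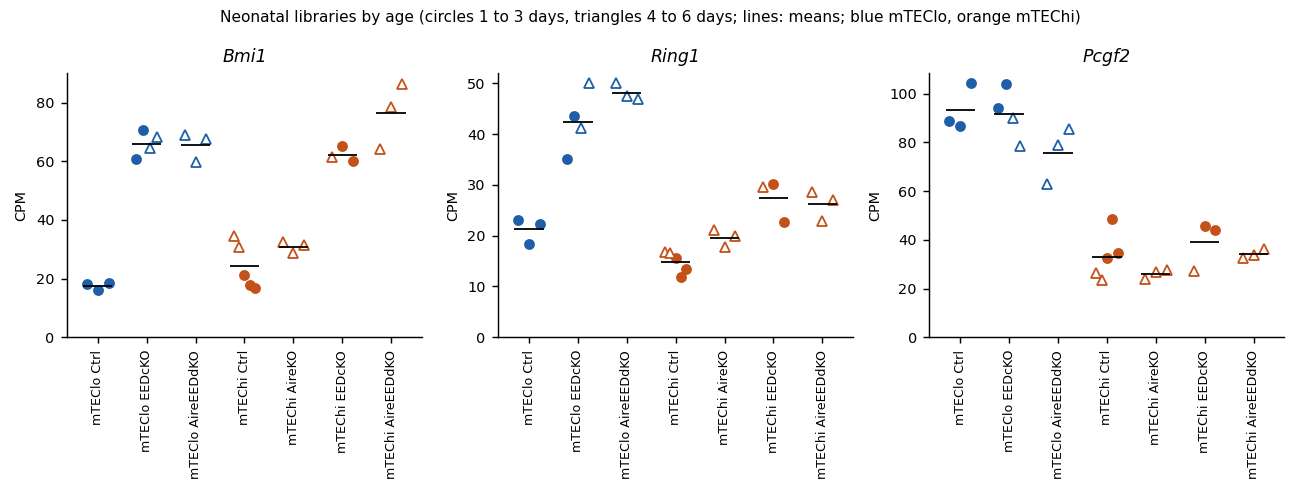
Levels of selected members in neonatal libraries (vertical axis in CPM, linear from 0), with circles for pups of 1 to 3 days, triangles for 4 to 6 days and lines at group means; blue is mTEClo and orange mTEChi. Bmi1 in EEDcKO and AireEEDdKO lies at 59.9 to 86.5 at every age, above all Ctrl and AireKO libraries, whose highest is 34.6.

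Mesenchymal markers summed to 332 to 346 CPM in Ctrl mTEClo and 643 to 966 in EEDcKO, and to 467 to 669 and 734 to 1067 in mTEChi. Cortical epithelial markers went the other way, with 2397 to 3579 CPM in Ctrl mTEClo and 429 to 1109 in EEDcKO, as did dividing-cell genes, with 2429 to 2621 against 1015 to 1972 in mTEClo and 1830 to 2323 against 767 to 1640 in mTEChi. Endothelial markers were lower too, at 12.5 to 22.4 CPM against 25.1 to 29.1 in Ctrl mTEClo and at 30.6 to 34.7 against 42.4 to 66.8 in Ctrl mTEChi. No gene of these lists was at 0 throughout a group except the endothelial Emcn, in Ctrl mTEClo and EEDcKO mTEChi, and their part in the changes of Bmi1, Ring1 and Cbx8 was not tested.

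The same rise was asked without Aire by AireEEDdKO against AireKO in mTEChi, where 1 member passed beside 16.8% of all genes. Bmi1 was at 64.2, 78.5 and 86.5 CPM against 32.6, 28.7 and 31.4, fully apart (1.31 ± 0.20, edgeR adjusted p = 7.92e-05). Ring1 was at 28.6, 22.9 and 27.0 CPM against 21.1, 17.8 and 19.9, also without overlap but not past the test (0.42 ± 0.18, edgeR adjusted p = 0.123). Dividing-cell genes summed to 503 to 1133 CPM in AireEEDdKO and 2577 to 2875 in AireKO, and endothelial markers to 29.9 to 34.4 and 38.9 to 40.1. Their part was not tested. The double knockout against EEDcKO gave 2 calls in mTEChi beside 22.5% of all genes, Cbx7 higher (220, 203 and 172 against 117, 139 and 103 CPM, 0.72 ± 0.17, edgeR adjusted p = 0.00378) and Cbx2 lower (-0.74 ± 0.27, edgeR adjusted p = 0.0464). The latter was lost without EEDcKO replicate 2 or AireEEDdKO replicate 1 or 2. In mTEClo none passed beside 8.02% of all genes (0 by DESeq2 too, while Cbx7, Rnf2 and Scml2, 3 members, lay below 0.05 unadjusted), and Bmi1 was at 68.8, 59.9 and 67.7 CPM, level with EEDcKO (-0.01 ± 0.17, edgeR adjusted p = 0.979). The Aire by EED interaction passed for none of the 9 beside 1.57% of all genes, with Bmi1 at -0.11 ± 0.26 (edgeR adjusted p = 0.902) and Cbx2 at -1.21 ± 0.36 (edgeR adjusted p = 0.0925, unadjusted p = 0.00296), where 2 members lay below 0.05 unadjusted and DESeq2 called 0. The share of all genes below 0.05 unadjusted was not counted, for this interaction or for AireEEDdKO against EEDcKO in mTEClo. Without AireEEDdKO mTEChi replicate 3, Cbx2 passed at -1.48 and, against AireKO, Scml2 passed at -1.79. Without mTEClo replicate 3, Cbx7 passed against EEDcKO at 0.53. All AireEEDdKO libraries were from 4 to 6 days, as were those of AireKO, while EEDcKO libraries of both fractions included pups of 1 to 3 days. Pup age and Aire genotype are therefore partly mixed against EEDcKO and among the groups of the interaction. These comparisons share the EEDcKO, AireKO or Ctrl libraries, so their values are not separate evidence.

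Paralogue balance was followed as the log2 ratio of the 2 genes within a library, per length and with 0.5 added to each count, in 4 pairs and 8 comparisons. After Benjamini-Hochberg adjustment over the 32 exact permutation tests, two-sided, 2 passed. Cbx7 relative to Cbx2 was 1.97 higher in adult WT mTEChi than in mTEClo (exact permutation p = 0.000155, the smallest possible, adjusted p = 0.00497) and 1.04 higher in adult AireKO than in WT mTEChi (exact permutation p = 0.00303, the smallest possible, adjusted p = 0.0485). The latter was lost in 10 of 11 fits with a library removed. Bmi1 made up 14.3% ± 0.909 (SD, n = 3) of Bmi1 plus Pcgf2 in neonatal Ctrl mTEClo and 39.1% ± 3.13 (n = 4) in EEDcKO, a ratio change of 1.93 without overlap (exact permutation p = 0.0286, the smallest possible with these numbers, adjusted p = 0.0914). In mTEChi its share was 39.8% ± 13.5 in Ctrl (24.6% to 53.9%), 59.2% ± 6.66 in EEDcKO, 51.4% ± 3.14 in AireKO and 66.3% ± 2.37 in AireEEDdKO. In Ctrl mTEChi Bmi1 was higher and Pcgf2 lower at 6 days than at 1 to 3 days. All AireKO and AireEEDdKO libraries were from 4 to 6 days, so pup age is partly mixed with genotype in these shares. Ring1 made up 28.9% ± 4.01 of Ring1 plus Rnf2 in Ctrl mTEClo and 45.1% ± 6.84 in EEDcKO, and in adult mTEChi 47.4% ± 7.98 in WT (n = 7) and 65.6% ± 7.69 in AireKO (n = 4; ratio change 1.10, exact permutation p = 0.00606, adjusted p = 0.0646). With 3 libraries a side no test could go below an exact p of 0.1.

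**Figure D5:**
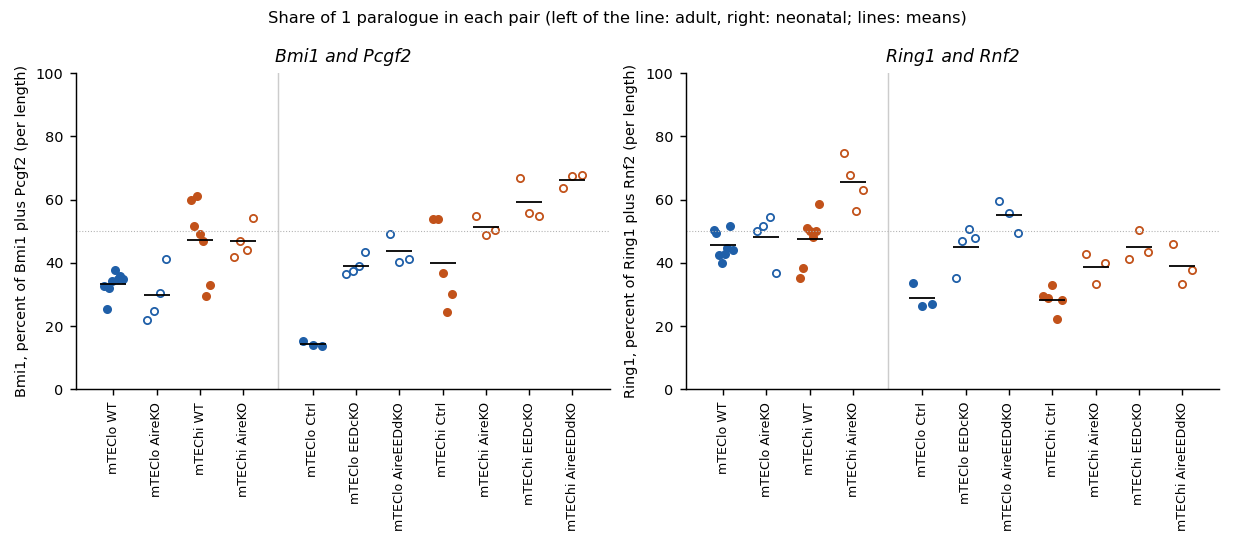
Share of 1 paralogue in its pair per length, in percent from 0 to 100, for each library, with adult groups left of the line, neonatal groups right of it and lines at group means. Bmi1 goes from a mean of 14.3% in neonatal Ctrl mTEClo to 39.1% in EEDcKO.

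The other genes of the pathway were counted from lists. They held 30 further PRC1 genes and 16 PRC2 gene names, of which 14 had a count row and were tested. They also held 11 genes of the machinery that removes ubiquitin from H2A, and 4 CDK inhibitor genes known as Polycomb targets. In adult WT mTEChi against mTEClo 8 of the 30 PRC1 genes were higher and 13 lower, with a median of -0.12 against 0.01 over all genes, of which 70.3% were called. The share called in the list was therefore near that of all genes. Kdm2b, which brings a non-canonical PRC1 to CpG islands, rose by 1.47 ± 0.08, its partner Bcor by 1.64 ± 0.09 and Tfdp1 by 1.66 ± 0.11, and Auts2 fell by 0.83 ± 0.06 (each edgeR adjusted p at most 2.22e-13). Of the PRC2 genes 7 were higher and 4 lower, of the deubiquitinase genes 3 and 6, and of the CDK inhibitors 3 and 0. In adult AireKO mTEChi against WT the PRC1 list had 12 higher and 9 lower, beside 54.5% of all genes called, and was led by Auts2 (0.77 ± 0.07, edgeR adjusted p = 3.51e-10), Phc3 (0.72 ± 0.07, edgeR adjusted p = 1.88e-09), a Polyhomeotic subunit of canonical PRC1, and Csnk2a2 and Pcgf3 at 0.70 and -0.70.

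With EED loss 8 of the 30 PRC1 genes were higher and 3 lower in mTEChi, and 5 higher and 4 lower in mTEClo, with median log2 changes of 0.0341 and 0.00152 against -0.00125 and -0.00576 over all genes. Of all genes 32.6% were called in mTEChi and 30.7% in mTEClo, which stands beside every count given here for these comparisons. Phc2, another Polyhomeotic subunit, Bcorl1, a BCOR relative, and Auts2 rose in both fractions (Phc2 1.03 ± 0.14 and 0.54 ± 0.15, Bcorl1 1.07 ± 0.17 and 1.26 ± 0.19, Auts2 0.78 ± 0.13 and 0.92 ± 0.14, each edgeR adjusted p at most 0.00891). The PRC2 list had 2 higher and 7 lower in mTEChi and 3 higher and 6 lower in mTEClo. Ezh2, the catalytic subunit, was at -0.93 ± 0.16 in mTEChi, and Eed itself at -0.67 ± 0.22 in mTEClo (edgeR adjusted p = 0.000125 and 0.023). All 4 CDK inhibitor genes rose in mTEClo, and Cdkn2a, which encodes the cell-cycle inhibitors p16 and p19, was at 1.20 ± 0.994 CPM in Ctrl (n = 3) and 14.2 ± 1.76 in EEDcKO (n = 4; 3.43 ± 0.44, edgeR adjusted p = 4.77e-06). In mTEChi 3 of the 4 rose, Cdkn2a from 3.81 ± 1.99 (n = 5) to 13.9 ± 5.25 (n = 3; 1.92 ± 0.32, edgeR adjusted p = 0.000119). Cdkn2a therefore rose in the same comparisons as Bmi1. The deubiquitinase list had 3 higher and 4 lower in mTEChi and 2 and 2 in mTEClo.

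The group means of Pcgf2, Scmh1 and Cbx2 were higher in every mTEClo group than in any mTEChi group of the same age. Neonatal Bmi1 was instead set apart by EED genotype, with both fractions mixed. Pcgf2 and Scmh1 went together in both tables (Pearson r of log2 CPM 0.90 over 23 adult and 0.93 over 24 neonatal libraries), and Cbx2 and Pcgf2 did so too (0.88 and 0.80). Bmi1 and Ring1 had r = 0.77 over the neonatal and 0.29 over the adult libraries, the latter holding no EED genotype. Cbx7 and Rnf2 went opposite ways in adults (-0.83) and less so in neonates (-0.30). These values share libraries, depth and the fraction difference and carry no test. Of 14396 genes with at least 5 CPM on average in both tables, those most like each member by the mean of r in both tables were Slc20a2 and Mtss1l for Pcgf2 (adult r 0.98 and 0.96), Col4a2 and Jag2 for Cbx2 (0.96 and 0.97) and Plekhn1 and Maml3 for Scmh1 (0.95 and 0.97). They were Zswim8 and Cic for Ring1 (0.90 and 0.92), Uhrf1bp1l and Ppp2r3a for Rnf2 (0.92 and 0.93) and Ushbp1 and Cspg4 for Cbx7 (0.90 and 0.95). The closest genes were less alike for Cbx8 (Ccdc71 and Arid5a, 0.80 and 0.76), Bmi1 (Tcp11l2 and Cpq, 0.76 and 0.68) and Scml2 (Muc16, 0.81).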

How the data were processed

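Bulk RNA was measured by RamDA-seq in 47 libraries of sorted mTECs, and groups and replicate numbers were taken from the sample labels. The authors trimmed reads with fastp (version 0.20.0), aligned them to mm10 with STAR (2.7.3a) and an Ensembl annotation whose release is not given in the sources used here, removed unmapped reads and those with a mapping quality under 5 using SAMtools (1.9), removed duplicate reads using Picard (2.21.1), and counted reads per gene without regard to strand with HTSeq (0.11.2). As the reads carry no stated molecular identifiers, duplicate removal can lower the counts of highly expressed genes. The deposited values used here are these raw counts, in separate adult and neonatal tables. The normalized tables were not used. Ensembl identifiers were matched to GRCm38 symbols and exon lengths.

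Genes passing edgeR's filterByExpr were fitted per table with all groups in 1 model (edgeR 4.0.16 in R 4.3.3, TMM scaling, quasi-likelihood F-test, Benjamini-Hochberg adjustment over all tested genes), with calls made below an adjusted p of 0.05. Fold changes carry a prior count of 0.125. Differences between ages used 1 joint fit of both tables over 53402 shared genes. CPM were computed on the scaled library size, TPM with exon lengths. Depth per library was 1578579 to 4817418 counts, with a biological coefficient of variation of 14.5% (adult) and 19.8% (neonatal). The fits were tested on simulated data with known changes. No pair of replicates agreed within sampling noise (lowest dispersion index 1.23, between adult WT mTEChi replicates 1 and 2). Some pairs were far closer to each other than to the rest of their group. In adult AireKO mTEChi replicates 1 and 2 were at 1.34 and 3 and 4 at 1.28, against 4.00 to 6.39 across these pairs. In neonatal Ctrl mTEChi replicates 1 and 2 were at 1.24, against 4.22 to 4.86 with the others. The tests treat all libraries as separate, so p-values can be too small where such pairs are not independent. Paralogue ratios were tested by two-sided exact permutation over libraries. Intervals of count ratios cover counting error only.

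The members and lists were chosen with earlier results of these data known. All 9 members were named, up to 4 called genes per list and comparison by smallest adjusted p (of these, the ones with a role described), and the 2 genes with the highest mean correlation to each member (1 gene for Scml2, the other is not reported here). Cdkn2b, Cdkn1a and Cdkn1c were counted only. Same-numbered libraries deviated together, every correlation of deviations over 0.1, between AireKO fractions in adults (0.139 to 0.222, 4 pairs), between AireEEDdKO fractions (0.291 to 0.416, 3 pairs) and between AireEEDdKO and AireKO mTEChi (0.108 to 0.213, 3 pairs), a hint from the data and not from the labels. Alternatives were DESeq2 (1.42.0), library size alone, other filters, fits of the compared groups alone, terms for age, replicate number or library kind, subsets of libraries, and leaving out each library. Promoter stretches came from RefSeq (GRCm38.p6), which matched 8 of the 9 members.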

Additional observations from a re-analysis of the deposited data

Results flagged for a closer look

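In 54 sets of values, each of 1 gene in a group of 4 to 8 libraries, the most extreme library was compared with the others by Dixon's gap ratio, which by chance flags about 1 in 20 sets, and 3 stood apart. Bmi1 was at 35.3 CPM in adult AireKO mTEChi replicate 4, above the 22.3 to 24.5 CPM of the other 3 libraries. Rnf2 was at 24.4 CPM in adult WT mTEChi replicate 7, below the other 6 at 34.6 to 39.4. Scmh1 was at 149.9 CPM in adult WT mTEClo replicate 3, above the other 7 at 109 to 128.

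The effect of Aire in adults differed between mTEChi and mTEClo by a test of the difference itself for Scmh1 (1.28 on the log2 scale), Scml2 (-3.90) and Cbx7 (0.43). The change from mTEClo to mTEChi differed between adult WT and neonatal Ctrl for Bmi1 (-1.08), Scmh1 (-0.69), Cbx7 (0.57) and Scml2 (1.31). The effect of Aire in mTEChi differed between adults and neonates for Scmh1 (1.12) and Scml2 (-2.95), each being the adult value minus the neonatal one. In both differences between adults and neonates the neonatal groups compared were not of the same pup ages.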

How the results depend on the processing

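Of the counts of members called, 137 of 162 under alternatives other than leaving out a library stayed within 1.5 times the reported count, as did 184 of 203 with a library left out. A 2-fold minimum left 4 of 9 members between adult WT fractions, 4 of 7 between AireKO fractions, 2 of 5 and 0 of 1 for AireKO in adult mTEChi and mTEClo, 3 of 5 between neonatal Ctrl fractions, 3 of 7 between EEDcKO fractions, 2 of 4 for EEDcKO in mTEChi, 0 of 1 for neonatal AireKO, 0 of 2 for AireEEDdKO against EEDcKO in mTEChi and 2 of 4 for maturation by age. Over all genes tested, in the same order, it left 6956, 6820, 4516 and 1605 of 19310 in adults. In neonates it left 4178, 4407, 2802, 3311 and 2696 of 20196, and for maturation by age 4266 of 21289. The share of all genes is not given here for the settings that follow. Without a filter on low counts the counts were 0 for AireKO in adult mTEClo, 3 between Ctrl fractions, 4 between EEDcKO fractions and 2 for maturation by age. Under a stricter filter, 10 counts in each library of 1 group, the adult Aire effect differed between fractions for 1 member. Fits of the compared groups alone gave 3 between EEDcKO fractions and 1 for AireEEDdKO against EEDcKO in mTEChi. Scaling by library size alone gave 3 for neonatal AireKO, where it moved the median of all genes by -0.21 (also -0.12, -0.11 and -0.13 for adult AireKO mTEChi, its difference from mTEClo, and AireEEDdKO against EEDcKO in mTEChi), and an age term gave 2 there and 1 for AireEEDdKO against EEDcKO in mTEChi. For AireKO in adult mTEClo, male libraries alone gave 0 and libraries with mitochondrial counts 2, where Bmi1 changed sign, from 0.03 to -0.62 (edgeR adjusted p = 0.046). The cause was not tested.

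With a replicate block the counts were 0 for AireKO in adult mTEClo, 1 for AireEEDdKO against EEDcKO in mTEChi and 2 for maturation by age; in these the numbers do not pair the libraries. In the 3 comparisons whose numbers did, the block changed no member's call (7, 5 and 1 called).

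Leaving out 1 library gave 0 to 2 for AireKO in adult mTEClo, 3 to 6 between Ctrl fractions, 2 to 4 for EEDcKO in mTEChi (2 without EEDcKO replicate 2), 1 to 3 for neonatal AireKO, 1 to 2 for AireEEDdKO against AireKO and against EEDcKO in mTEChi, 0 to 1 for AireEEDdKO against EEDcKO in mTEClo and for the Aire by EED interaction, and 1 to 4 for paralogue ratios (the adult AireKO call was lost without any 1 mTEChi AireKO or WT library except WT replicate 7, without which 4 ratios passed). Depth limits Scml2 most, at 0 to 38 counts per library.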
